A study of Arabidopsis thaliana with 6 samples.

Results

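The genes described are 49 nuclear genes of Arabidopsis thaliana that encode proteins of the cytosolic ribosome, out of 32947 genes measured in each library. They were picked by locus identifier from a given list by a rule that uses no measured value, and the list was drawn up with earlier results of these data known. Their proteins fall into 28 families, 16 of them with more than 1 gene among the 49. A family here means only its genes among the 49, and copies outside the set enter no family value. The large (60S) subunit has 28 of the genes and the small (40S) subunit 21. In the reference annotation 47 of the 49 carry a ribosomal protein product name. The other 2 carry older names, BBC1 (a gene of L13) and SAG24 (a gene of L10).

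Leaf mRNA was sequenced from 6 libraries of 3-week-old leaves of Columbia-0 plants kept in constant light, prepared with the Illumina TruSeq mRNA kit. Wild type (WT) had 2 libraries, and 1 library each came from plants labelled nrpe1-11, idn2-1, idnl1-1 idnl2-1 (the double mutant) and idn2-1 idnl1-1 idnl2-1 (the triple mutant). NRPE1 forms the catalytic core of RNA polymerase V, and IDN2 with its relatives IDNL1 and IDNL2 works in the same pathway, RNA-directed DNA methylation, which silences transposons. No mutant had a replicate. The labels do not tell whether separate plants gave the WT libraries, so p-values cover the spread among these libraries alone, which may be technical.

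A cytosolic ribosome joins a small subunit, which reads the mRNA, to a large subunit, which forms peptide bonds and binds translation factors through a stalk of acidic P proteins. In Arabidopsis each of its proteins is encoded by a small family of near-identical genes, most of them active in every growing tissue. Ribosomal protein mRNAs are known to be made together and to be abundant in young, dividing tissue.

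Depth split the libraries into a shallower set, with 2737943 reads for WT replicate 1 and 3078153, 2884772 and 2793873 for nrpe1, idn2 and the triple mutant, and a deeper set, with 5975802 for WT replicate 2 and 5819494 for the double mutant. Each mutant was therefore set against the WT library of its own depth, so nrpe1, idn2 and the triple mutant share WT replicate 1 as their control. The leaf mesophyll markers were abundant in all 6 libraries (7 of 7 genes, between 62.7 and 344 RPKM, reads per kilobase of gene span set to a common library size). Of the root markers EXPA7 and PLT1 had 0 reads in every library, as did the shoot meristem marker WUS. IDNL1 mRNA fell in the triple mutant (0.187 against 4.86 RPKM in WT replicate 1, limma adjusted p = 0.0107) and in the double mutant (0.316 against 6.37 RPKM in WT replicate 2, limma adjusted p = 0.0226). IDN2 mRNA was 12.4 RPKM in idn2 and 18.02 RPKM in WT replicate 1. NRPE1 mRNA was not lower in the library labelled nrpe1 (4.92 against 2.14 RPKM), so its level does not check that label.

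The ribosomal protein genes were among the most abundant mRNAs of the leaf. Their median was 93.5 RPKM in WT replicate 1, and 98.9, 89.6 and 91.6 RPKM in the libraries labelled nrpe1, idn2 and triple mutant. It was 60.02 RPKM in WT replicate 2 and 63.8 RPKM for the double mutant. In each library this median lay above 92.2% to 96.3% of the 22362 genes tested, which are those that reached 1 RPKM in some library. All 49 passed that filter, and the smallest number of reads for any of them in any library was 47. The gap in level between shallower and deeper libraries was far larger than that between genotypes of 1 depth. RPKM here divide by the gene's whole span with introns, so levels of different genes are compared per exon length. Where 4 values are given for the shallower libraries, the order is WT replicate 1, nrpe1, idn2, triple mutant, and for the deeper ones WT replicate 2, double mutant.

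**Figure D1:**
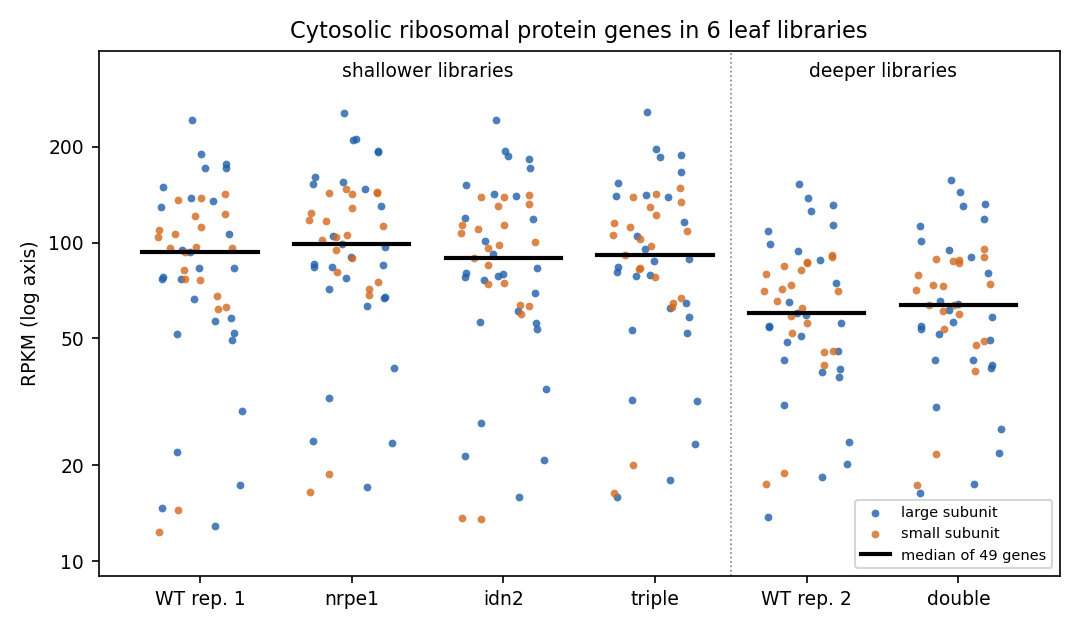
RPKM on a log axis of the 49 ribosomal protein genes in each library, 1 point per gene, with large subunit genes in blue, small subunit genes in orange and the median as a black bar. The medians of the 4 shallower libraries lie between 89.6 and 98.9 RPKM and those of the 2 deeper ones at 60.02 and 63.8 RPKM.

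Per exon length the 4 highest genes were EMB2296 (AT2G18020) of L8, AT5G02870 of L4, RP1 (AT1G43170) of L3 and P40 (AT1G72370) of SA, at means of 222, 210, 200.2 and 196 RPKM per exon length over the 6 libraries. L3 and L4 are core proteins of the large subunit, L4 lining the tunnel through which the new peptide leaves, and SA sits on the small subunit near the mRNA exit. The 4 lowest were RPSAb (AT3G04770) of SA at 19.3, AT5G39850 of S9 at 21.0, AT2G40010 of P0 at 23.3 and AT1G33120 of L9 at 28.2. SA thus held a gene from each end of the range, and for SA, S9 and P0 the low gene was the minor copy beside an abundant one.

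With the library labelled nrpe1, all 49 genes were higher than in WT replicate 1, against 52.1% of all tested genes and 56.3% of the 8293 genes that reached 20 RPKM in some library. The differences were small: the median was 0.17 on the log2(RPKM + 1) scale, against 0.02 for all tested genes and 0.04 for genes that reached 20 RPKM. The smallest was 0.01 and the largest 0.66. By the median of ratios to the mean library, nrpe1 stood at 0.03 and WT replicate 1 at -0.03 on the log2 scale. Scaling by these values would lower every difference, so the count of 49 depends on the deposited scaling. At least 1.5-fold higher in RPKM was 1 gene, AT1G33120 of L9, against 10.6% of all tested genes, and none was as much lower, against 9.31%. None was 2-fold higher or lower, against 4.11% and 4.87%. At least 25% higher were 11 genes (22.4%), against 22.0% of all tested genes, a share at the background, and 14.4% of genes that reached 20 RPKM, and none was at least 20% lower, against 16.2%.

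A read ratio whose exact 95% binomial interval lay above 1 was found for 22 genes (44.9%) in the library labelled nrpe1, against 10.8% of all tested genes and 15.9% of genes that reached 20 RPKM, and none lay below 1, against 8.97%. This interval covers counting error only and says nothing of the spread between plants. It narrows as reads increase, and most of the 49 genes are more abundant than most tested genes. The shares are therefore not matched for read number. Together the 49 genes held 0.820% of the reads (exact 95% interval 0.810 to 0.831%) in the library labelled nrpe1 and 0.728% (0.718 to 0.738%) in WT replicate 1, a ratio of 1.13 (1.11 to 1.15). The share was 0.748% (0.738 to 0.758%) in idn2 and 0.769% (0.759 to 0.780%) in the triple mutant, so nrpe1 was the highest of the 4 shallower libraries. Gene by gene it was the highest of these 4 libraries for 41 of 49, and for 33.0% of all tested genes. WT replicate 1, the shared control, was the lowest of the 4 for 37 of 49, and for 24.1% of all tested genes. In bulk leaves, more cells that express a gene and more of its RNA per cell cannot be told apart.

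limma called none of the 49 in the library labelled nrpe1 against both WT libraries, where it called 3.26% of all tested genes. Without adjustment 7 of 49 had p under 0.05, against 8.83% of all tested genes. On recovered reads (voom) the same model called 1 of 49, and 682 of the 22362 tested genes. The lowest adjusted p without voom was 0.0883, for AT1G01100 of P1. This fit averages over WT libraries of both depths, and the only replicate pair is that WT pair, which differed by far more for these genes (a median of -0.47 on the log2 scale) than nrpe1 did from its WT library.

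**Figure D2:**
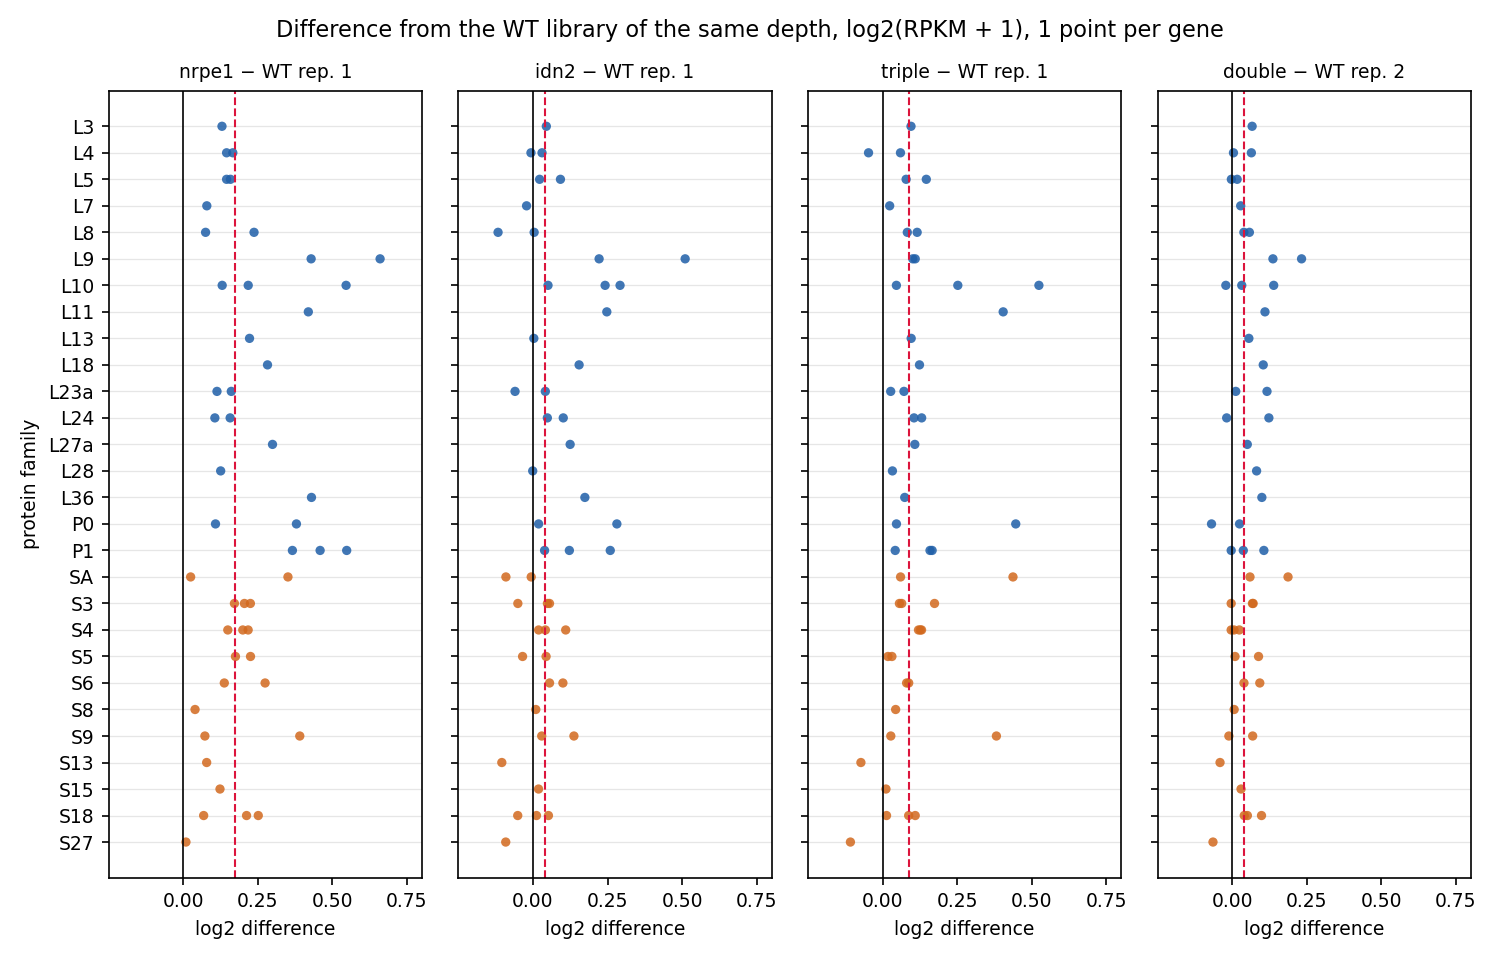
Difference of each gene from the WT library of the same depth on the log2(RPKM + 1) scale, in 1 panel per mutant, with 1 row per protein family, large subunit genes in blue and small subunit genes in orange. The dashed red line is the median of the 49 genes, 0.17 for nrpe1, 0.04 for idn2, 0.09 for the triple mutant and 0.04 for the double mutant, and every point of the nrpe1 panel lies above 0.

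Large subunit genes had a median difference of 0.19 in the library labelled nrpe1, with 9 of 28 (32.1%) at least 25% higher, against 22.0% of all tested genes, and 14 read intervals above 1, against 10.8%. The largest family differences were those of L9, with 307 reads in the library labelled nrpe1 and 188 in WT replicate 1 (ratio 1.45, exact 95% interval 1.21 to 1.75), and of P1, with 786 and 506 reads (ratio 1.38, 1.23 to 1.55). L11 and L36 followed at ratios of 1.36 (0.984 to 1.90) and 1.35 (1.11 to 1.65). Of all 28 families 18 had an interval above 1, none had one below 1, and the median ratio was 1.11. Pooling the reads of a family narrows its interval, so this count cannot be set beside the share for single genes. No share for families outside the set is given here.

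P1 is an acidic protein of the stalk that recruits translation factors to the large subunit. Its 3 genes in the set lie on chromosomes 1 (AT1G01100, TAIR8 positions 50090 to 51108), 4 (AT4G00810, 345952 to 347184) and 5 (AT5G47700, 19345029 to 19346209). AT1G01100 had 57.8, 84.9, 69.4 and 64.6 RPKM in the shallower libraries and 45.8 and 49.3 RPKM in the deeper ones. AT4G00810 had 51.6, 71.2, 56.2 and 53.1 RPKM in the shallower libraries and 42.8 and 42.7 RPKM in the deeper ones. AT5G47700 had 51.99, 67.3, 53.4 and 58.5 RPKM in the shallower libraries and 40.2 and 41.3 RPKM in the deeper ones. All 3 were highest in the library labelled nrpe1 and lowest in the 2 deeper libraries.

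The log2 differences of the P1 genes in the library labelled nrpe1 were 0.55, 0.46 and 0.37, and each read interval lay above 1. In limma AT1G01100 had a log2 difference of 0.71 (SE 0.24, adjusted p = 0.0883) from both WT libraries, and the other 2 had adjusted p of 0.211 and 0.290. On recovered reads with voom, AT1G01100 passed, at an adjusted p of 0.0319.

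P0, which anchors P1 and its partner to the ribosome, differed less. Its main gene in the set, AT3G09200, had 149, 161, 151 and 154 RPKM in the shallower libraries and 99.1 and 100.8 RPKM in the deeper ones. Its minor gene AT2G40010 had 12.9, 17.1, 15.9 and 17.95 RPKM in the shallower libraries and 18.4 and 17.5 RPKM in the deeper ones. The minor gene was therefore lowest in WT replicate 1 and lay between 15.9 and 18.4 RPKM in the other libraries. AT2G40010 overlaps AT2G40008, and reads of that stretch cannot be assigned to either.

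L9 has a pair of neighbouring genes on chromosome 1, AT1G33120 (TAIR8 positions 12010881 to 12012504) and PGY2 (AT1G33140, 12023255 to 12024763), the latter known from leaf polarity mutants. Of the 32-base windows in their exons 56.7% and 62.1% occur elsewhere in the reference genome, against a median of 1.56% for all 49 genes, so how reads were split between them is uncertain. AT1G33120 had 14.7, 23.8, 21.3 and 15.9 RPKM in the shallower libraries and 13.7 and 16.3 RPKM in the deeper ones. PGY2 had 29.7, 40.3, 34.8 and 31.9 RPKM in the shallower libraries and 23.6 and 26.1 RPKM in the deeper ones. Both were highest in nrpe1, then in idn2, and the other 4 libraries lay lower.

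The log2 differences of AT1G33120 and PGY2 were 0.66 and 0.43 in the library labelled nrpe1, with limma adjusted p of 0.165 and 0.154. In idn2 they were 0.51 and 0.22, with limma adjusted p of 0.772 and 1.00. With median-of-ratios scaling in place of the deposited totals limma called AT1G33120 in nrpe1 (adjusted p = 0.00174) and in idn2 (adjusted p = 0.0232), and PGY2 in nrpe1 (adjusted p = 0.0112). Of the 22362 tested genes this scaling gave 1389 calls in nrpe1 and 718 in idn2, where the deposited totals gave 728 and 371. With quantile normalization limma called AT1G33120 in nrpe1 (adjusted p = 0.0318), among 1074 calls over all tested genes. Without this pair the median of the other 47 genes stayed at 0.17 in nrpe1, and 20 of 47 read intervals lay above 1.

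L10, a protein that joins the large subunit late in its assembly, has 3 genes. SAC52 (AT1G14320) had 135, 147, 139.5 and 139 RPKM in the shallower libraries and 88.2 and 90.2 RPKM in the deeper ones. SAG24 (AT1G66580), named for senescence, had 66.3, 77.3, 78.6 and 79.2 RPKM in the shallower libraries and 50.95 and 56.2 RPKM in the deeper ones. RPL10B (AT1G26910, chromosome 1, TAIR8 positions 9321637 to 9322952) had 21.96, 32.5, 27.1 and 32.01 RPKM in the shallower libraries and 31.01 and 30.5 RPKM in the deeper ones.

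RPL10B was thus lowest in WT replicate 1 and lay between 27.1 and 32.5 RPKM in the other libraries. Its log2 difference from WT replicate 1 was 0.55, 0.29 and 0.52 for nrpe1, idn2 and the triple mutant, and limma, which uses both WT libraries, gave 0.31, 0.05 and 0.28, with adjusted p of 0.951, 1.00 and 1.00. RPL16A (AT2G42740), the L11 gene of the set, whose protein binds the 5S RNA with L5, had 17.3, 23.5, 20.8 and 23.3 RPKM in the shallower libraries and 20.2 and 21.8 RPKM in the deeper ones.

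L8, L4 and L3, abundant large subunit families, showed small differences. The L8 gene EMB2296, named for embryo lethality, had 242, 255, 242 and 256.05 RPKM in the shallower libraries and 153 and 157 RPKM in the deeper ones. Its paralogue AT4G36130 had 129, 153, 119 and 140.3 RPKM in the shallower libraries and 109 and 113 RPKM in the deeper ones. In the library labelled nrpe1 they differed from WT replicate 1 by 0.07 and 0.24 on the log2 scale, the L4 genes AT3G09630 and AT5G02870 by 0.17 and 0.15, and RP1 of L3 by 0.13. All 5 were lower in both deeper libraries than in any of the 4 shallower ones.

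Small subunit genes had a median difference of 0.17 in the library labelled nrpe1, with 2 of 21 (9.52%) at least 25% higher, below the 22.0% of all tested genes, and 8 read intervals (38.1%) above 1, against 10.8%. The least different member in that library was RS27A (AT3G61110) of S27, a zinc-finger protein of the small subunit. It had 67.9, 68.3, 63.7 and 62.95 RPKM in the shallower libraries and 41.4 and 39.6 RPKM in the deeper ones. RS27A was lower than the matched WT library in idn2, the triple and the double mutant, by 0.09, 0.11 and 0.06 on the log2 scale, and each read interval included 1.

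RPS13A (AT4G00100) of S13 had 96.4, 102, 89.6 and 91.6 RPKM in the shallower libraries and 65.7 and 63.9 RPKM in the deeper ones. Like RS27A it stood below its matched WT library in those 3 mutants. AT5G20290 of S8 had 138, 142, 139 and 142 RPKM in the shallower libraries and 86.1 and 86.5 RPKM in the deeper ones. RPS15 (AT1G04270) of S15, which lies near the decoding site, had 96.9, 106, 98.2 and 97.7 RPKM in the shallower libraries and 62.5 and 63.8 RPKM in the deeper ones.

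The 3 genes of S18, whose first was named PFL (AT1G22780) for a pointed first leaf when mutated, were at 76.9 (PFL), 62.8 (AT1G34030) and 81.9 RPKM (RPS18C, AT4G09800) in WT replicate 1. In the library labelled nrpe1 they were at 80.7, 74.96 and 95.02 RPKM, with log2 differences of 0.07, 0.25 and 0.21. RPS18C overlaps AT4G09810 and shares reads with it. P40 and RPSAb of SA were at 142 and 14.5 RPKM in WT replicate 1 and at 144 and 18.8 RPKM in nrpe1. The main S9 gene AT5G15200 and its minor copy AT5G39850, whose protein lies where mRNA enters, were at 136 and 12.3 RPKM in WT replicate 1 and at 143 and 16.5 RPKM in nrpe1.

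In idn2, 37 of 49 genes were higher than in WT replicate 1, against 48.4% of all tested genes and 53.6% of genes that reached 20 RPKM, with a median log2 difference of 0.04 (all tested genes -0.01). No gene was 1.5-fold higher or lower, against 7.53% and 8.38% of all tested genes, and 1, AT1G33120, was at least 25% higher, against 16.1%. Read intervals lay above 1 for 2 genes, AT1G33120 and SAG24, against 5.35% of all tested genes, and none lay below 1, against 5.72%. The share of reads in the 49 genes was 1.03 times that of WT replicate 1 (1.01 to 1.05). The largest negative difference was that of AT4G36130 of L8, at -0.12. Set against both WT libraries, which differ in depth, limma had 47 of 49 above 0 and a median log2 difference of 0.29. limma called none, where it called 1.66% of all tested genes, with 1 of 49 at an unadjusted p under 0.05, against 5.33%, and no call with voom.

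In the triple mutant, 46 of 49 were higher than in WT replicate 1, against 44.2% of all tested genes and 54.4% of genes that reached 20 RPKM, with a median log2 difference of 0.09 (all tested genes -0.02). No gene was 1.5-fold higher or lower, against 5.58% and 7.92% of all tested genes. The 5 genes at least 25% higher, against 12.9% of all tested genes, were RPL10B, AT2G40010, RPSAb, RPL16A and AT5G39850, with log2 differences of 0.52, 0.45, 0.44, 0.40 and 0.38. Against WT replicate 2 the same genes in the triple mutant differed by 0.04, -0.04, 0.08, 0.20 and -0.08. For RPL10B, AT2G40010, RPSAb and AT5G39850 the triple mutant and WT replicate 2 thus lay close together, above WT replicate 1.

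Read intervals in the triple mutant lay above 1 for 3 genes, RPL10B, AT2G40010 and SAG24, against 3.83% of all tested genes, and none lay below 1, against 4.54%. The share of reads in the 49 genes was 1.06 times that of WT replicate 1 (1.04 to 1.08). With both WT libraries, which differ in depth, as the control, limma had 49 of 49 above 0 and a median log2 difference of 0.32. limma called none, where it called 0.3% of all tested genes, and none had an unadjusted p under 0.05 or was called with voom. The L4 gene AT3G09630, at 172 RPKM in WT replicate 1 and 166 in the triple mutant, was 1 of 3 genes that were lower.

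In the double mutant, 39 of 49 were higher than in WT replicate 2, against 55.0% of all tested genes and 52.7% of genes that reached 20 RPKM, with a median log2 difference of 0.04 (all tested genes 0.01). No gene was 1.5-fold higher or lower, against 3.57% and 6.02% of all tested genes, none was 25% higher or 20% lower, against 8.38% and 12.2%, and no read interval excluded 1, against 6.05% above and 7.3% below. The largest differences were those of AT1G33120 (0.23), RPSAb (0.19), SAG24 (0.14) and PGY2 (0.14). The most negative was that of AT2G40010, at -0.07. The share of reads in the 49 genes was 0.530% (0.524 to 0.535%) against 0.513% (0.508 to 0.519%) in WT replicate 2, a ratio of 1.03 (1.02 to 1.05). The limma fit sets the double mutant against both WT libraries, which differ in depth. There the direction was the reverse, with 6 of 49 above 0 and a median log2 difference of -0.18. limma called none, where it called 0.344% of all tested genes, and none had an unadjusted p under 0.05 or was called with voom.

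**Figure D3:**
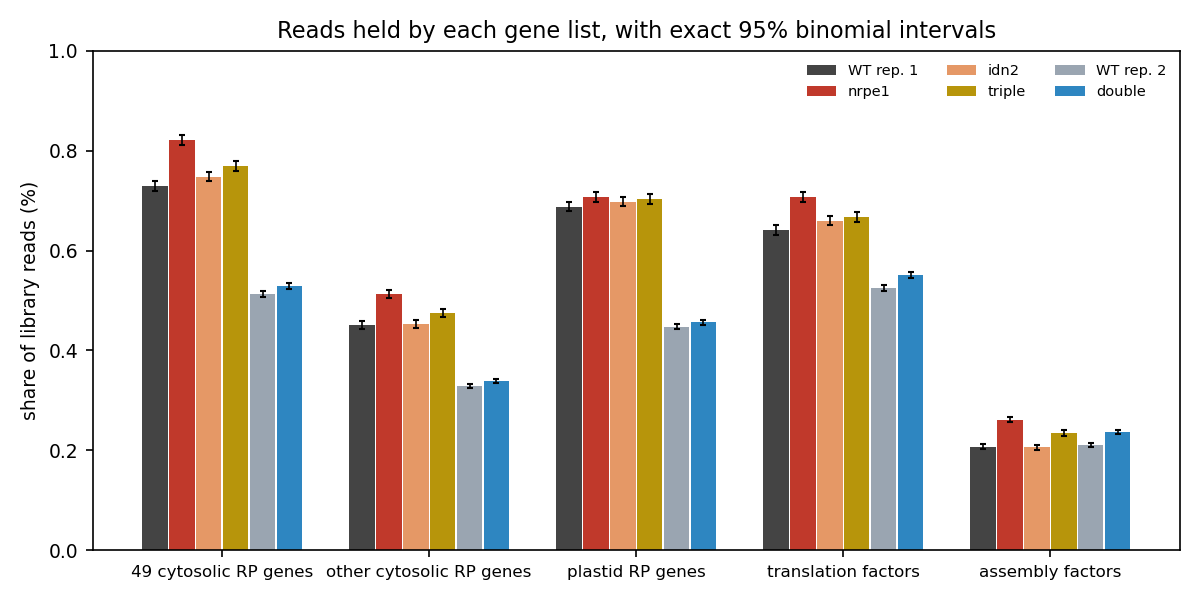
Share of each library's reads, in percent, held by the 49 ribosomal protein genes and by 4 other gene lists, with 1 bar per library and exact 95% binomial intervals, which cover counting error only (RP, ribosomal protein). The 49 genes held 0.820% in nrpe1, 0.728% to 0.769% in the other shallower libraries and 0.513% to 0.530% in those of greater depth.

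When limma set the 4 mutants together against both WT libraries with depth as a term, it called none of the 49 and 0.0% of all tested genes. At an unadjusted p under 0.05 stood 1 of 49, SAG24, with a log2 difference of 0.20 (SE 0.06, adjusted p = 0.612), against 6.81% of all tested genes. Of the 49, 47 had a difference above 0, against 49.4% of all tested genes, with a median of 0.08, and voom called none. Without WT replicate 1 the count was 39 and the median 0.04, without nrpe1 46 and 0.05, and with no depth term 49 and 0.20.

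By the median, the 49 genes differed more between the WT libraries than between any mutant and its matched WT library. WT replicate 2 was lower than WT replicate 1 for 44 of 49 genes, against 33.0% of all tested genes and 39.5% of genes that reached 20 RPKM. It was at least 1.5-fold lower for 11 (22.4%) and higher for none, against 12.4% of all tested genes each way, and at least 20% lower for 41 (83.7%), against 17.1%. None was 2-fold lower or higher, against 10.4% and 3.17%. Higher by 25% were 4 of 49, against 32.6%, namely AT2G40010, RPL10B, AT5G39850 and RPSAb. The largest difference downward on the log2 scale was that of RS27A, at 67.9 and 41.4 RPKM. Plastid ribosomal protein genes and mesophyll markers stood further apart, with 31 of 31 and 7 of 7 lower in WT replicate 2. Their medians were -0.61 and -0.83, against -0.47 for the 49 genes. Other genes annotated as cytosolic ribosomal proteins and translation factor genes stood less far apart, with medians of -0.41 and -0.16.

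This difference went with how densely a gene was covered. Members had 0.0427 to 0.683 reads per exon base in WT replicate 1 (median 0.374) and 0.122 to 0.973 in WT replicate 2 (median 0.565). In the 17 members with the fewest reads per exon base the median log2 difference of WT replicate 2 from WT replicate 1 was -0.33, in the 16 with middle values -0.50 and in the 16 with the most -0.59. Across the 49 genes the difference had a Pearson r of -0.89 and a Spearman rho of -0.66 with log2 reads per exon base. All points share both libraries, and WT replicate 1 enters both axes. The highest gene of each library had 1.37 to 1.56 reads per base of its span, the added read included, in the shallower and the deeper libraries alike. The sources used here do not say whether identical reads were removed before counting, and its part in this pattern was not tested.

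The differences of the shallower mutants from WT replicate 1 also went with read density, in a set without such a gap in depth. For nrpe1 the median was 0.38 in the 17 members with the fewest reads per exon base, 0.15 in the middle 16 and 0.13 in the 16 with the most (Pearson r -0.76, Spearman rho -0.67 over the 49 genes). For the triple mutant Pearson's r was -0.77 and Spearman's rho -0.48, and for idn2 they were -0.56 and -0.36. These 3 comparisons share WT replicate 1, which enters both axes. For the double mutant against WT replicate 2, on the same density axis, r was -0.24 and rho -0.17. The cause was not tested.

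**Figure D4:**
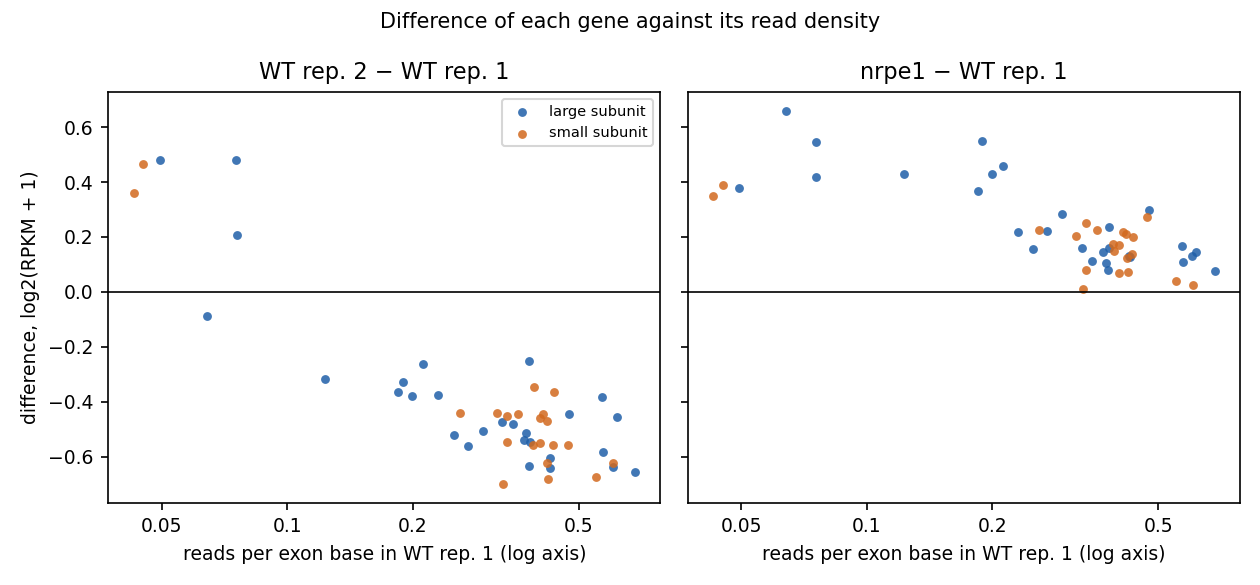
Difference on the log2(RPKM + 1) scale of each of the 49 genes against its reads per exon base in WT replicate 1 on a log axis, for WT replicate 2 (left) and nrpe1 (right), both set against WT replicate 1. In the left panel 5 of the 17 scarcest genes lie above 0 and the other 44 genes below, down to -0.70, and in the right panel all lie above 0, the scarce ones highest.

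The split of reads between paralogues was compared within families. For the 37 genes of the 16 families with more than 1 gene, no gene's share of its family's reads had an exact 95% interval apart from that of its matched WT library in any of the 4 mutants. Between the WT libraries 10 of 37 had intervals that did not overlap, in families L8, L10, P0, SA and S9, and none did in the other 11 families. The same count was not made for gene families outside the set. RPL10B held 8.95% (7.15 to 11.0%) of the L10 reads in WT replicate 1 and 16.8% (14.9 to 18.8%) in WT replicate 2. The minor SA gene RPSAb held 7.47% (5.79 to 9.46%) and 14.1% (12.3 to 16.2%), and the double mutant stood at 15.3% (13.4 to 17.4%).

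**Figure D5:**
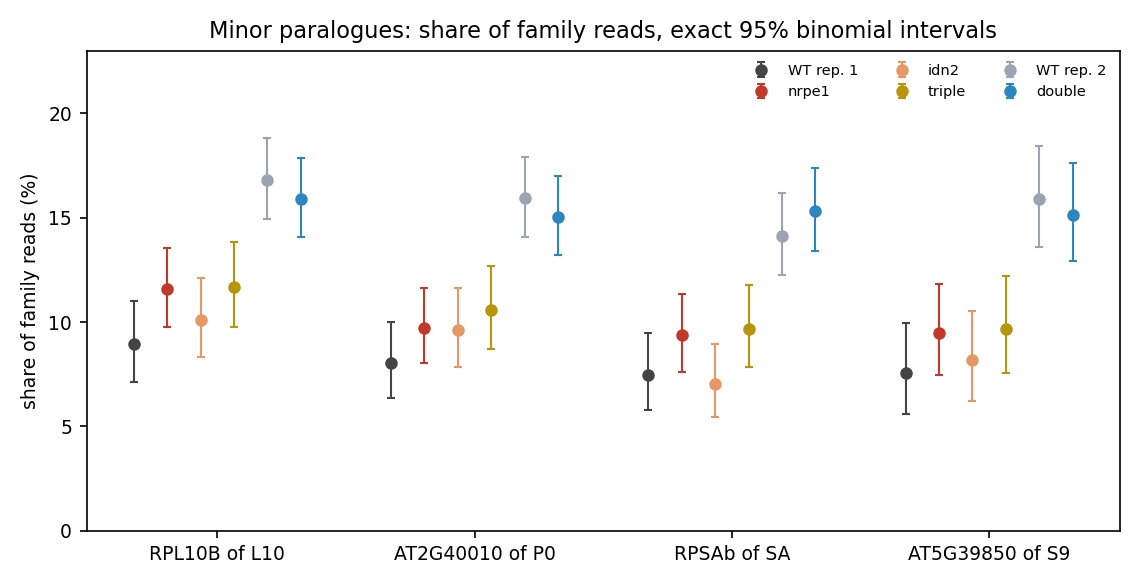
Share of family reads, in percent, held by the minor paralogue of L10, P0, SA and S9 in each library, with exact 95% binomial intervals. In the 4 shallower libraries the shares lie between 7.05% and 11.7%, and in the 2 deeper ones between 14.1% and 16.8%.

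Balanced families kept a near-even split. The 3 P1 genes held 31.1% to 35.9% of the P1 reads in every library. The S3 genes, whose protein lies at the mRNA entry of the small subunit, held 28.3% to 36.4%. The S6 genes, whose protein is phosphorylated downstream of the TOR kinase, held 45.8% to 54.2%.

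Other lists of the translation apparatus were described in the same way. The list of 66 other genes annotated as cytosolic ribosomal proteins had 62 that passed the filter, and 57 of these were higher in the library labelled nrpe1 than in WT replicate 1 (all tested genes 52.1%), with a median log2 difference of 0.19. limma called 1 of the 62, AT3G28500, an acidic 60S protein gene, which rose from 23.9 RPKM in WT replicate 1 to 63.9 in the library labelled nrpe1 (limma log2 difference 1.15, adjusted p = 1.4e-05) and had 33.3 RPKM in WT replicate 2. In idn2, the triple and the double mutant 29, 47 and 48 of the 62 were higher, against 48.4%, 44.2% and 55.0% of all tested genes, with medians of -0.01, 0.07 and 0.04. The count for idn2 was at the background. Of 36 translation factor genes 32 were higher in the library labelled nrpe1, with a median of 0.16, and limma called none in any mutant.

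Genes of ribosome assembly were scarcer, with a median of 16.3 RPKM in WT replicate 1. In the library labelled nrpe1, 30 of 31 that passed the filter were higher than in WT replicate 1, against 52.1% of all tested genes. Their median log2 difference was 0.37, and 18 were at least 25% higher, against 22.0% of all tested genes. The 17 members with the fewest reads per exon base had a median of 0.38 in the same comparison, and the difference between lists was not tested. AT3G15460, an assembly factor gene, was at 5.97 RPKM in WT replicate 1 and 11.96 in nrpe1, and RID2, a methyltransferase gene of rRNA processing, at 8.21 and 14.5 RPKM. The medians were -0.02 in idn2, 0.16 in the triple mutant and 0.17 in the double mutant, and limma called none of the 31 in any mutant. Of the plastid ribosomal protein genes 24 of 31 were higher in nrpe1, against 52.1% of all tested genes, with a median of 0.05. None was 25% higher or 20% lower in any of the 4 mutants.

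Markers of some other tissues were higher in the library labelled nrpe1. All 5 flower markers (AP1, AG, SEP3, PI and AP3) were at least 1.5-fold higher in the library labelled nrpe1, against 10.6% of all tested genes. They were scarce, with 30 reads together in WT replicate 1 and 116 in nrpe1. Their summed level was 13.3 RPKM in nrpe1, against 2.52 to 6.46 RPKM in the other 5 libraries. In idn2, the triple and the double mutant 1, 4 and 4 of the 5 were at least 1.5-fold lower than in the matched WT library. The shares of all tested genes were 8.38%, 7.92% and 6.02%. Of 6 markers of dividing cells 4 were at least 25% higher in nrpe1, against 22.0% of all tested genes, and 1, CDKB2;1, was lower (-0.22 on the log2 scale). Their summed level in nrpe1 was 152 RPKM, against 121 to 126 RPKM in the other shallower libraries and 143 and 144 RPKM in the deeper ones. Both shoot meristem markers that passed the filter, STM and KNAT1, were higher in nrpe1, with a summed level for the 4 markers of 17.8 RPKM against 12.7 to 16.3 RPKM in the other 5 libraries, the upper value being that of WT replicate 2. The 4 root markers had 0 reads in nrpe1 and 1 to 10 reads in the other libraries. All 7 mesophyll markers were lower in nrpe1, by 0.03 to 0.13 on the log2 scale. All 7 were also lower in the triple mutant, by 0.01 to 0.07, as were 3 of 7 in idn2 and 2 of 7 in the double mutant. The part of these tissues in the ribosomal protein difference was not tested.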

How the data were processed

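The authors deposited RPKM for 32947 genes in each of 6 leaf libraries, made with Bowtie per the submitters' processing notes (no version) on TAIR8 gene models per the file headers and names. How identical, multi-mapped and antisense reads were handled is not stated in the sources used here. In each library 100% of RPKM times gene span were whole multiples of 1 step (tolerance 1e-06), the lowest being 1, read as 1 read added to each gene. That read was taken off, which gave read numbers and depth. Since starts appeared to count from 0, positions are printed with 1 added and may be 1 base off.

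The reference TAIR10.1 gave only symbols (32377 of 32947 identifiers matched, and all 49 members), exon lengths, capped at the TAIR8 span for 3 members, and the count of repeated 32-base windows. IDNL1 and IDNL2 are FDM1 and FDM2 there, and NRPE1 is NRPD1B. Families were assigned by protein name and hold only genes among the 49.

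Differences are of log2(RPKM + 1), which understates those of low genes. Mutants were set against the WT library of their own depth with no test, by folds of 1.5 and 2, by differences of 25% up or 20% down and by exact 95% binomial intervals of read ratios, which cover counting error only. limma 3.58.1 (R 4.3.3) tested each genotype over 22362 genes with at least 1 RPKM in some library, with an intensity trend and Benjamini-Hochberg adjustment at 0.05. Its residual degree of freedom was 1 (3 for the pooled mutants), the prior degrees of freedom were infinite (2.32), and no gene's own spread entered the fit for each mutant. On simulated data it recovered most changed genes, with more false calls than the threshold allows in the fits of single mutants. The rest was done in Python 3.11.15 (matplotlib 3.10.9, numpy 2.4.6, scipy 1.17.1, pandas 2.3.3).

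The members and lists were chosen with earlier results of these data known. Named genes are those limma called, the 4 largest and 4 smallest differences per mutant, the 4 highest and 4 lowest levels per exon length, and their paralogues. The list of other cytosolic ribosomal protein genes holds only names that exclude plastid and mitochondrial proteins. A planned search of promoter motifs was not run, since no promoter table of the files' build was used here.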

Additional observations from a re-analysis of the deposited data

How the results depend on the processing

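Of the 49 genes, the number at least 1.5-fold from the matched WT library in nrpe1 (1) became 11 at 25% higher or 20% lower, 0 at 2-fold and 22 by read intervals. For idn2 (0) it became 1 at 25% or 20% and 2 by read intervals, and for the triple mutant (0) 5 and 3. Against the WT library of the other depth it became 40 in nrpe1, 21 in idn2, 21 in the triple mutant and 7 in the double mutant. The shares of all tested genes in these comparisons are not given here, nor is that between the WT libraries with scaling below. These counts are therefore not read as particular to the 49 genes. The median log2 differences then became 0.68, 0.56 and 0.55, and in the double mutant reversed from 0.04 to -0.40. The ratios of read shares became 1.60, 1.46 and 1.498, and in the double mutant reversed from 1.03 to 0.727. limma called 2 members in nrpe1 with median-of-ratios scaling, 1 with quantile normalization and 1 with voom, and 1 in idn2 with median-of-ratios scaling. In the same order it called 1389, 1074, 682 and 718 of the 22362 tested genes. These calls are therefore not read as particular to the 49 genes, and the cause was not tested. Between the WT libraries the number of 1.5-fold differences (11) became 45 at 25% or 20%, 0 at 2-fold and 33 with median-of-ratios scaling, which moved WT replicate 2 by 0.11 on the log2 scale against the mean of the libraries. Median differences kept their sign with a pseudocount of 0.1, with that scaling, with no filter, and without the L9 pair, which was an alternative chosen after seeing the data. Leaving out each library in turn, the median difference of the pooled fit lay between 0.04 and 0.10. That fit called no tested gene with all 6 libraries, so calls among the 49 cannot show how it depends on 1 library.

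No paired analysis was possible because the labels give mutants no replicate numbers that pair them with WT libraries. Each mutant is 1 library, and the WT libraries differ in depth, so the spread between plants of 1 genotype at 1 depth is not known for any of these genes. Counting error alone leaves a single gene of 47 to 150 reads a wide interval, as for L11.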

Other observations

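Genes of TOR and SnRK1 signalling, the kinases that set growth to nutrients and energy, were described beside the ribosomal protein genes, with no test of the difference between the lists. Of 12 genes 5 were higher in the library labelled nrpe1 than in WT replicate 1, against 52.1% of all tested genes. At least 25% higher were 3 of 12, against 22.0% of all tested genes, a share near the background. The median log2 difference was -0.02. In idn2 10 of 12 were higher, against 48.4% of all tested genes, with a median of 0.09. The medians were -0.02 in the triple mutant and -0.03 in the double mutant. limma called none of the 12 in any mutant.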
